A study of Mus musculus with 37 samples.

Results

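The genes described here are the 10 SR splicing factor genes Srsf1, Srsf2, Srsf3, Srsf4, Srsf5, Srsf6, Srsf7, Srsf9, Srsf10 and Srsf11. They were chosen by symbol and are 10 of the 54752 genes in the deposited tables, with 85 of the 138835 transcripts. SR proteins bind exons through RNA recognition motifs and recruit the splicing machinery through domains rich in serine and arginine, which SRPK and CLK kinases phosphorylate. Most of their genes also make transcripts that nonsense-mediated decay can remove, and through these transcripts several SR proteins limit their own level. A fully grown oocyte makes little new RNA during meiosis, so its transcript levels there follow mainly from storage, polyadenylation and decay.

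The study sequenced single mouse oocytes by Smart-seq2, a full-length method, at 3 stages: germinal vesicle (GV, before meiosis resumes), metaphase I (MI) and metaphase II (MII). Batch A holds 6 GV and 6 MII oocytes, and batch B holds 10 GV and 15 MI oocytes, so each later stage is compared with GV oocytes of its own batch. All oocytes came from C57BL/6 females of 6 to 8 weeks that were given 5 IU of PMSG, with no transgene or mutation named. The ovary, at 48 h after PMSG, was the source of GV oocytes. Females given 5 IU of hCG as well yielded MII oocytes 15 h later, from the ampulla. Denuded GV oocytes cultured for 8 h in M16 medium gave the MI oocytes, so MI oocytes matured in vitro and MII oocytes in the animal. The zona pellucida and polar body had been removed. The labels name no female for an oocyte, so p-values measure the spread between these oocytes, which may be partly technical. Levels of the batches were normalized separately, and batch cannot be told apart from any other difference between the GV oocytes of batch A and batch B.

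Libraries are named by stage, batch and number. Expected counts per library ranged from 7509810 to 12648600 in GV_A, from 9930420 to 13988300 in MII_A, from 7184190 to 17724500 in GV_B and from 2709250 to 19390100 in MI_B. Some libraries stood apart. MII_A1 had 29816 genes with a count, against 19574 to 22598 in the other MII oocytes. MI_B15 had the fewest counts, 2709250, and 12654 genes. In MI_B4, MI_B8 and MI_B9 the median over genes of the ratio of HTSeq to RSEM counts was 1.13, 1.11 and 1.07. It was 1.98 to 2.20 in the other libraries. This is not the ratio of library totals. Results that move without MII_A1 or MI_B15 are given with the values without them. MI_B4, MI_B8 and MI_B9 were left out only in an added alternative with HTSeq counts. All other HTSeq values of MI_B include them.

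Levels of genes were compared in CPM per kilobase of annotated transcript (CPM per kb, where CPM is a library's counts scaled to a common total). Srsf2, Srsf10 and Srsf1 were highest in GV_A, at 35.1 ± 10.1, 32.7 ± 4.58 and 29.4 ± 7.24 (mean ± SD, n = 6). Short transcripts weigh more on this scale. Transcripts annotated as targets of nonsense-mediated decay made up on average 39.9% of the Srsf2 level and 45.6% of the Srsf1 level in GV_A. The part of annotated lengths in the order of genes was not tested. Srsf2 and Srsf1 each bind exonic enhancers, and Srsf10 is an atypical SR protein that represses splicing once it is dephosphorylated. Srsf5, Srsf4, Srsf3, Srsf7, Srsf9, Srsf11 and Srsf6 followed at 23.6, 19.2, 18.8, 13.4, 7.34, 7.30 and 3.21 CPM per kb. Of the neighbours in this order, Srsf3 lay above Srsf7 and Srsf7 above Srsf9 by more than the larger of their SDs. The means of the other neighbours lay closer than that. Within oocytes, Srsf11 was above Srsf6 in 6 of 6, and Srsf10 above Srsf1, Srsf1 above Srsf5 and Srsf9 above Srsf11 in 5 of 6. Srsf2 above Srsf10 and Srsf5 above Srsf4 held in 4 of 6, and Srsf4 above Srsf3 in 3 of 6. In MII_A the order on the same scale was Srsf10 46.4, Srsf1 32.6, Srsf3 29.6, Srsf5 28.0, Srsf4 26.7, Srsf7 20.7, Srsf2 14.6, Srsf11 6.36, Srsf9 5.16 and Srsf6 2.62. These orders are by RSEM counts. By HTSeq counts on the same scale Srsf10 was first in both groups of batch A. Srsf2 was at place 5 in GV_A and 6 in MII_A, and Srsf4 at place 10 and 9. HTSeq counts name no transcripts, so in each group their level per kb takes a gene's length from its RSEM transcript mix. The HTSeq orders are thus not independent of RSEM. By RSEM counts, neighbours in MII_A with means apart by more than the larger SD were Srsf10 and Srsf1, Srsf2 and Srsf11, and Srsf9 and Srsf6. The first of each pair was higher in 5, 6 and 6 of 6 oocytes.

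In GV_B the order of levels in CPM per kb was Srsf1 58.3, Srsf10 48.8, Srsf5 37.5, Srsf2 25.8, Srsf4 20.4, Srsf11 10.3, Srsf7 9.66, Srsf9 8.31, Srsf3 5.72 and Srsf6 2.04. Neighbours whose means there lay apart by more than the larger SD were Srsf4 and Srsf11, Srsf9 and Srsf3, and Srsf3 and Srsf6. The first of each pair was higher in 9, 6 and 10 of 10 oocytes, so Srsf9 and Srsf3 were not separated oocyte by oocyte. MI_B kept Srsf1, Srsf10 and Srsf5 at the top of this scale, at 57.5, 50.0 and 45.6, ahead of Srsf2 at 20.4 and Srsf4 at 16.1. Srsf11 at 14.4, Srsf9 at 12.1, Srsf3 at 5.87, Srsf7 at 5.01 and Srsf6 at 1.47 came after them. By HTSeq counts Srsf1, Srsf10 and Srsf5 also led both groups of batch B, but Srsf4 was at place 9 in each, and in MI_B Srsf11 at 27.3 and Srsf9 at 23.3 were above Srsf2 at 19.5. In MI_B the RSEM means of Srsf5 and Srsf2, Srsf9 and Srsf3, and Srsf7 and Srsf6 were apart by more than the larger SD. The first of each pair was higher in 15, 14 and 13 of 15 oocytes. By RSEM counts Srsf6 was the lowest of the 10 in each group, while by HTSeq counts Srsf4 was lowest in GV_A. Srsf3, which also joins splicing to mRNA export, was sixth in GV_A and ninth in GV_B by RSEM counts on this scale.

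**Figure D1:**
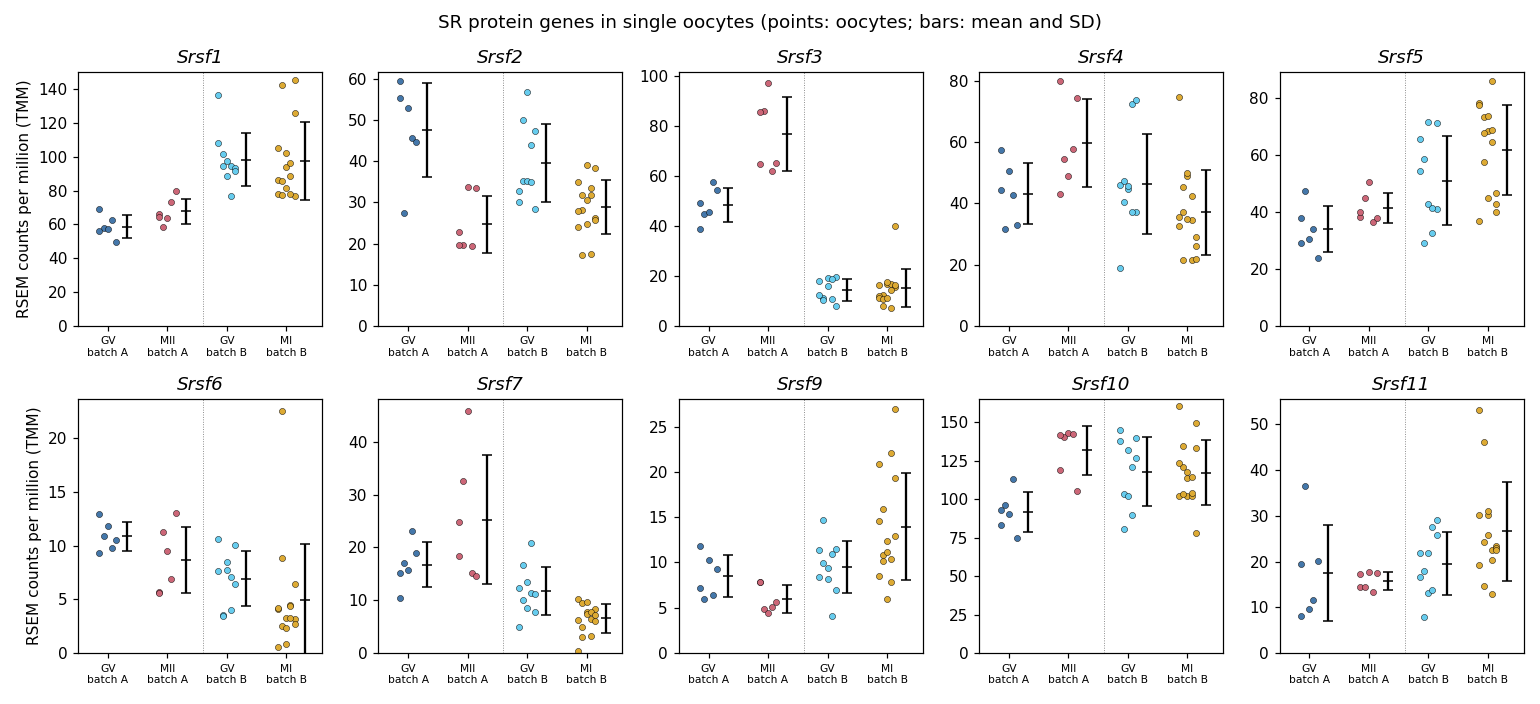
Level of each SR gene in CPM (vertical axis) in each oocyte of the 4 groups, with bars for the mean and SD. Srsf3 in the 6 MII oocytes lies above all GV oocytes of batch A, and Srsf2 in MII_A overlaps GV_A through GV_A2 at 27.4 CPM.

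The first comparison asks how SR transcripts differ between GV and ovulated MII oocytes. A gene was called when edgeR gave an adjusted p under 0.05 over all genes tested and a fold over 2. All 10 genes passed the filter on low counts, and edgeR called 0 of 10, against 8.47% of the 12929 genes tested. DESeq2 called 0 of the 10 against 8.52% of all genes, HTSeq counts in edgeR gave 0 against 5.79%, and 5 of the 10 had an unadjusted p under 0.05 against 34.3%. On the adjusted p alone, Srsf3 and Srsf10 were higher, 2 of 10 against 9.06% of all genes, and Srsf2 was lower, 1 of 10 against 11.5%. These shares are near the background and are not a result about the family. The median log2 fold change of the 10 was 0.25 beside 0.01 for all genes, with 6 genes up and 4 down. Scaling by spike-in RNA put all 10 down, but it also put the median of all genes at −0.72, so this count is no result about the family.

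Srsf2 (ENSMUSG00000034120.18, GRCm38 chr11:116849901-116853094, minus strand) encodes SC35, a protein of nuclear speckles. Its level ran from 27.4 to 59.6 CPM in GV_A with a median of 49.4, and from 19.4 to 33.6 CPM in MII_A with a median of 21.2. All 6 MII oocytes were below the GV median and 4 were below every GV oocyte; the groups overlapped only through the low oocyte GV_A2. The log2 fold change was −0.95 (SE 0.208, 95% interval −1.35 to −0.54, adjusted p 0.00499), short of a fold of 2. Without MII_A1 it was −0.92 with an adjusted p of 0.0126. With HTSeq counts it was −0.51 and missed the threshold, with an adjusted p of 0.113.

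Srsf3 (ENSMUSG00000071172.13, chr17:29032628-29043373, plus strand) ran from 38.9 to 57.4 CPM in GV_A with a median of 47.3, and from 62.0 to 97.2 CPM in MII_A with a median of 75.4. The groups did not overlap, which held for 1 of the 10 genes against 9.79% of all genes tested. The log2 fold change was 0.67 (SE 0.152, 95% interval 0.37 to 0.96, adjusted p 0.00609), higher in 6 of 6 oocytes, and −0.06 when scaled by spike-in RNA. Without MII_A1 it was 0.72 with an adjusted p of 0.00774.

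Srsf10 (ENSMUSG00000028676.17, chr4:135855747-135869908, plus strand) ran from 75.1 to 113 CPM in GV_A with a median of 91.6, and from 105 to 143 CPM in MII_A with a median of 141. All 6 MII oocytes were above the GV median and 5 were above every GV oocyte, with MII_A5 the lowest. The log2 fold change was 0.52 (SE 0.133, 95% interval 0.26 to 0.78, adjusted p 0.0117), and −0.18 when scaled by spike-in RNA. Without MII_A1 it was 0.55 with an adjusted p of 0.0168. With HTSeq counts, Srsf3 gave 0.73 with an adjusted p of 0.00458 and Srsf10 gave 0.59 with an adjusted p of 0.0103.

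The other 7 genes did not pass the adjusted p between GV and MII, with log2 fold changes from −0.51 to 0.59 and overlapping groups. Srsf1, the classic enhancer-binding factor, averaged 58.7 ± 6.62 CPM in GV_A and 67.7 ± 7.52 in MII_A (0.21, adjusted p 0.268), and 6 of 6 MII oocytes were above the GV median. Srsf4, a large SR protein, averaged 43.2 ± 9.96 and 59.8 ± 14.4 CPM (0.47, adjusted p 0.0847). Srsf5, another enhancer-binding SR protein, averaged 33.8 ± 8.08 and 41.3 ± 5.40 CPM (0.29, adjusted p 0.232). These 3 were above the GV median in 6, 5 and 6 of 6 oocytes by TMM scaling, and their log2 fold changes turned to −0.54, −0.25 and −0.45 by spike-in scaling.

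Srsf7, a shuttling factor related to Srsf3, averaged 16.8 ± 4.21 and 25.2 ± 12.2 CPM (0.59, adjusted p 0.143), with 4 of 6 MII oocytes above the GV median, and −0.15 by spike-in scaling. Without MII_A3, its highest oocyte, the log2 fold change was 0.34 (adjusted p 0.366). Srsf9, a small relative of Srsf1, averaged 8.51 ± 2.33 and 5.95 ± 1.54 CPM (−0.51, adjusted p 0.156), with 6 of 6 below. Srsf6, an enhancer-binding protein like Srsf4, averaged 10.9 ± 1.35 and 8.67 ± 3.08 CPM (−0.33, adjusted p 0.360), with 4 of 6 below. Srsf11, an SR-related protein that binds U2AF, averaged 17.6 ± 10.5 and 15.8 ± 1.92 CPM (−0.15, adjusted p 0.761), and its GV spread came largely from GV_A2 at 36.4 CPM. The sign of its log2 fold change turned without GV_A2 (0.20) and with the replicate number as a block (0.0327).

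Spike-in RNA had 32 counts or fewer per library in batch B, too few to scale by. In batch A it made up 0.906% ± 0.300 of counts in GV oocytes and 1.19% ± 0.163 in MII oocytes (mean ± SD, n = 6). Scaling by it moved the median log2 fold change of all genes to −0.72, and 3.34% of the genes then called were higher, against 25.4% by TMM. Relative to that median, Srsf2 was at −1.01, Srsf9 at −0.62, Srsf6 at −0.36 and Srsf11 at −0.22, while Srsf3 was at 0.66, Srsf7 at 0.56, Srsf10 at 0.53, Srsf4 at 0.46, Srsf5 at 0.26 and Srsf1 at 0.18. By spike-in scaling Srsf2 (−1.73, adjusted p 9.69e-05), Srsf9 (−1.34, adjusted p 0.00565) and Srsf6 (−1.08, adjusted p 0.0150) were called lower. That is 3 of 10 beside 30.3% of all genes called by the same scaling, a share at the background, and Srsf11 (−0.94, adjusted p 0.0362) passed the adjusted p short of a fold of 2. The TMM values compare each gene with the other RNA of the oocyte, and the spike-in values compare it with the RNA added per library.

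The next comparison asks what had already moved by MI. edgeR called 0 of 10 genes between GV and MI, against 0.121% of the 12419 genes tested. On the adjusted p alone 0 of 10 were higher, against 0.0966% of all genes, and 0 were lower, against 0.0483%. DESeq2 called 0 of the 10 against 0.974% of all genes, HTSeq counts gave 0 against 0%, and 4 had an unadjusted p under 0.05 against 11.0%. With so few of all genes called, a count of 0 is no result about the SR genes. Their median log2 fold change was −0.01 beside 0.02 for all genes, with 4 up and 6 down; spike-in scaling was not possible in batch B.

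Srsf2 ran from 28.4 to 56.8 CPM in GV_B with a median of 35.2, and from 17.1 to 39.1 CPM in MI_B with a median of 28.2. Its groups overlapped, with 13 of 15 MI oocytes below the GV median (log2 fold change −0.46, SE 0.151, adjusted p 0.200). Srsf7 (ENSMUSG00000024097.11, chr17:80200080-80207307, minus strand) ran from 4.97 to 20.8 CPM in GV_B with a median of 11.3, and from 0.471 in MI_B6 to 10.2 CPM in MI_B with a median of 7.14. All 15 MI oocytes were below the GV median, though the groups overlapped and the log2 fold change of −0.84 (SE 0.291) missed the threshold, with an adjusted p of 0.223.

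Srsf9 averaged 9.53 ± 2.88 CPM in GV_B and 14.0 ± 5.93 in MI_B (0.54, adjusted p 0.370), and Srsf11 averaged 19.6 ± 6.89 and 26.6 ± 10.8 CPM (0.45, adjusted p 0.448), each with 12 of 15 MI oocytes above the GV median. Srsf6 averaged 6.92 ± 2.58 and 4.91 ± 5.28 CPM (−0.49, adjusted p 0.699), with 13 of 15 below. Srsf4 averaged 46.4 ± 16.4 and 37.1 ± 14.0 CPM (−0.32, adjusted p 0.589), and Srsf5 averaged 50.9 ± 15.6 and 61.8 ± 15.8 CPM (0.28, adjusted p 0.556). Srsf1, Srsf3 and Srsf10 had log2 fold changes of −0.02, 0.04 and −0.01. Srsf1 averaged 98.4 ± 15.8 and 97.5 ± 23.0 CPM, Srsf10 118 ± 22.5 and 117 ± 21.0 CPM, and Srsf3 14.4 ± 4.29 and 15.1 ± 7.65 CPM. The highest Srsf3 value at MI, 40.1 CPM, was that of the thin library MI_B15, and without it the log2 fold change was −0.12.

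**Figure D2:**
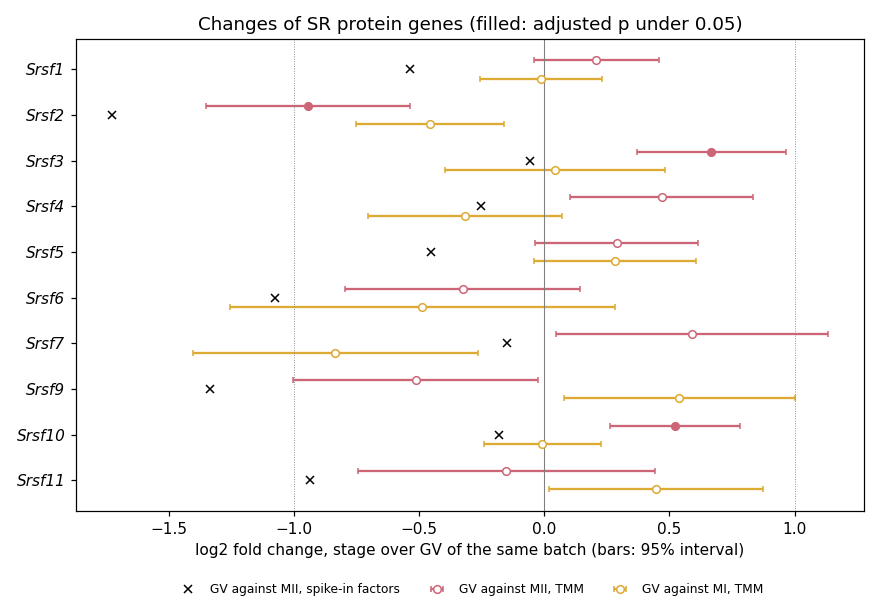
Log2 fold change of each SR gene at MII and at MI against GV oocytes of the same batch, with 95% intervals; filled points passed the adjusted p, and crosses mark values scaled by spike-in RNA at MII. By TMM Srsf2 is lower (−0.95) and Srsf3 (0.67) and Srsf10 (0.52) are higher at MII. The crosses put all 10 genes below 0, Srsf3 at −0.06 and Srsf10 at −0.18 among them, where the median of all genes is −0.72.

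Whether the MII change differed from the MI change was tested in a model of all 37 oocytes. Of the 10 genes, 1 passed the adjusted p, against 5.46% of the 15083 genes tested, so the share is near the background. The gene was Srsf7, with a log2 fold change of 0.65 at MII and −0.85 at MI in this model, a difference of 1.50 (SE 0.461, adjusted p 0.0437). At MII its highest oocyte was MII_A3 at 45.8 CPM against 14.6 in the lowest, and without MII_A3 the difference was 1.24 with an adjusted p of 0.127. The call was lost without any of 9 of the 12 oocytes of batch A. Without MII_A1 the difference was 1.61 with an adjusted p of 0.0477, and 3.34% of all genes passed. Without MI_B15 it was 1.52 with an adjusted p of 0.0378, and Srsf3 (0.87, adjusted p 0.0448) and Srsf10 (0.64, adjusted p 0.0350) then passed too, against 6.14% of all genes. HTSeq counts gave Srsf7 1.55 with an adjusted p of 0.0767. For Srsf10 the difference was 0.60 (adjusted p 0.0566), for Srsf9 −0.99 (adjusted p 0.131), for Srsf4 0.85 (adjusted p 0.121) and for Srsf3 0.71 (adjusted p 0.223). The remaining 5 did not pass, with differences from −0.53 to 0.29. With single oocytes left out, the Srsf11 difference of −0.53 ran from −0.69 to −0.18 (without GV_A2), and the Srsf6 difference of 0.23 ran from 0.0847 (without MII_A5) to 0.35. Each side of this comparison has its own batch and its own way of maturing, which cannot be told apart from the stage.

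Of the 85 SR transcripts, 26 passed the filter on low counts in batch A, 21 coding, 3 annotated as targets of nonsense-mediated decay, 0 with a retained intron and 2 others. Between GV and MII, edgeR called 1 of these 26, against 5.57% of the 22461 transcripts tested. On the adjusted p alone 2 were higher, against 3.49%, and 2 were lower, against 5.81%, and 5 had an unadjusted p under 0.05, against 24.2% of all transcripts. These counts are too few to set the SR transcripts apart from the background. In batch B 29 SR transcripts passed the filter, and between GV and MI edgeR called 0 of them, against 0% of the 22717 transcripts tested. DESeq2 called 0 SR transcripts at MI, against 0.453% of all transcripts, and 5 of 29 had an unadjusted p under 0.05, against 7.11%.

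The transcript called at MII was Srsf2-204, a decay transcript of Srsf2. It ran from 3.57 to 17.1 CPM in GV_A with a median of 8.10, and from 0 to 3.15 CPM in MII_A with a median of 1.41. The groups did not overlap, and MII_A4 had no count. How often groups did not overlap over all transcripts was not computed, and over all genes tested it was 9.79%. The log2 fold change was −2.65 (SE 0.682, adjusted p 0.0281), lower in 6 of 6 MII oocytes, and DESeq2 gave −2.66 with an adjusted p of 0.000434. Without MII_A1 it was −2.76 with an adjusted p of 0.0492, and leaving out any of 6 other oocytes took the adjusted p past the threshold. In batch B Srsf2-204 averaged 4.49 ± 1.35 CPM at GV and 4.75 ± 2.01 at MI (0.08, adjusted p 0.999).

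Srsf2-201, the main coding transcript, averaged 38.9 ± 8.88 CPM in GV_A and 23.2 ± 6.31 in MII_A. Its log2 fold change was −0.75 (SE 0.213, adjusted p 0.0445), but it passed in only 6 of 17 alternatives. It was lost without MII_A1 (−0.71, adjusted p 0.0957) and without any of 8 other batch A oocytes. At MI it averaged 23.9 ± 5.11 CPM against 35.2 ± 9.30 at GV (−0.56, adjusted p 0.338). Srsf3-202, the coding transcript of Srsf3, averaged 44.1 ± 7.50 and 71.7 ± 15.9 CPM in GV_A and MII_A (0.70, adjusted p 0.0222). It passed in 11 of 17 alternatives. Its groups did not overlap, without a rate over all transcripts to set beside this. Srsf10-204, a coding transcript, averaged 34.4 ± 9.82 and 61.2 ± 12.1 CPM (0.83, adjusted p 0.0213) and passed in 13 of 17 alternatives, while the longer coding transcript Srsf10-205, picked after its values were seen, averaged 28.7 ± 2.45 and 34.5 ± 3.46 CPM (0.26, adjusted p 0.212). Scaled by spike-in RNA, Srsf3-202 was at −0.00 (adjusted p 0.997) and Srsf10-204 at 0.19 (adjusted p 0.506).

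The most counted GV_A transcripts of the other 7 genes were all coding and did not pass at MII. They were Srsf1-201 (0.29, adjusted p 0.209), Srsf4-202 (0.46, adjusted p 0.177), Srsf5-201 (0.30, adjusted p 0.335), Srsf6-203 (−0.39, adjusted p 0.350), Srsf7-208 (0.68, adjusted p 0.256), Srsf9-201 (−0.52, adjusted p 0.241) and Srsf11-202 (−0.32, adjusted p 0.689). With single oocytes of batch A left out, Srsf7-208 ran from 0.39 (without MII_A3) to 0.86, and Srsf11-202 from −0.50 to 0.0455 (without GV_A2). Spike-in scaling turned Srsf1-201, Srsf4-202, Srsf5-201 and Srsf7-208 to −0.40, −0.25, −0.39 and −0.01, and by that scaling Srsf6-203 (−1.11, adjusted p 0.0315) and Srsf9-201 (−1.33, adjusted p 0.0227) passed as lower. At MI the log2 fold change farthest from 0 among these was that of Srsf7-208, which averaged 7.51 ± 3.19 CPM at GV and 3.16 ± 2.24 at MI (−1.23, adjusted p 0.666). MI_B6, MI_B9 and MI_B15 had no count of it, and its log2 fold change ran from −2.01 (replicate number as a block) to −1.15 (without MI_B15) over the alternatives.

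The share of each gene's transcript counts that fell to coding, retained-intron and decay transcripts was compared next. In batch A the share of decay transcripts in Srsf2 ran from 13.6% to 28.8% in GV oocytes with a median of 16.4%, and from 0% to 9.29% in MII oocytes with a median of 5.75%. The groups did not overlap. How often this held over all shares was not computed, and over all genes tested it held for the levels of 9.79%. The mean share was 18.5% ± 5.96 at GV and 5.45% ± 3.63 at MII (SD, n = 6). The count of 0 in MII_A4 came from 219 counts of Srsf2, which allows a share of up to 1.37%; such limits and intervals cover counting error only. The log2 change in use of the decay class, −1.18, did not pass in edgeR (adjusted p 0.179), and limma on log ratios gave −2.53 with an adjusted p of 0.127. The coding share was 81.1% ± 5.65 at GV and 94.2% ± 3.59 at MII.

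In batch B the Srsf2 decay share lay the other way, from 7.24% to 15.4% at GV with a median of 11.8% and from 7.55% to 28.8% at MI with a median of 16.5%, with overlapping groups. The log2 change in use was 0.40 (adjusted p 1). The GV oocytes of batches A and B, at means of 18.5% and 11.6%, overlapped. Since Srsf2-204 is shorter than Srsf2-201, its weight grows per length: the mean decay share per length was 39.9% in GV_A, 14.4% in MII_A, 28.2% in GV_B and 36.5% in MI_B.

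Of the 32 shares of the 10 genes, 10 shares of 5 genes could be tested at MII and 11 shares of 5 genes at MI. edgeR passed 0 of 10 at MII, against 1.09% of the 6350 shares tested in all genes, with 1 at an unadjusted p under 0.05, against 6.25% of all shares, and 0 by limma, against 3.13%. At MI it passed 0 of 11, against 0.0278% of 7193, with 0 at an unadjusted p under 0.05, against 2.95%, and 0 by limma, against 0%. Backgrounds this low make counts of 0 no result about the SR genes.

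**Figure D3:**
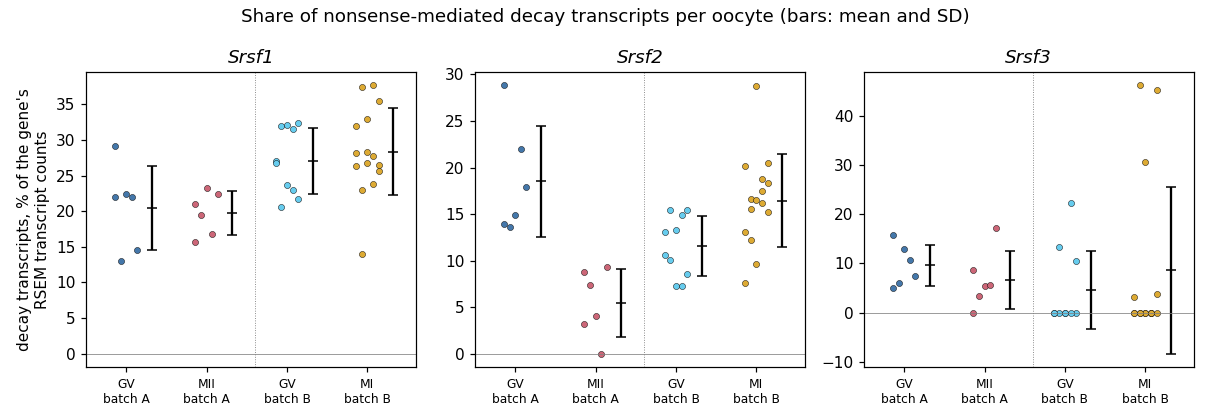
Share of each gene's transcript counts in decay transcripts (percent, vertical axis) for Srsf1, Srsf2 and Srsf3 in each oocyte of the 4 groups. Srsf2 lies between 13.6% and 28.8% in GV_A and between 0% and 9.29% in MII_A, while Srsf1 overlaps in both batches.

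Srsf1 (ENSMUSG00000018379.17, chr11:88047373-88053755, plus strand) held the largest mean decay share of the 10 genes in each group. It was 20.5% ± 5.90 in GV_A, 19.7% ± 3.07 in MII_A, 27.0% ± 4.68 in GV_B and 28.4% ± 6.15 in MI_B, nearly all from Srsf1-204. In GV_A the Srsf2 decay share, 18.5% ± 5.96, did not differ from it beyond the spread. Srsf1-204 averaged 12.4 ± 4.75 CPM in GV_A and 13.4 ± 2.81 in MII_A (0.12, adjusted p 0.849). The coding share of Srsf1 was the lowest of the 10 in each group, from 65.2% in MI_B to 79.7% in MII_A. A retained-intron share of Srsf1 was measured mainly in batch B, 7.17% ± 4.32 at GV and 6.42% ± 2.37 at MI (log2 change in use −0.15, adjusted p 1), beside means of 1.46% and 0.590% in GV_A and MII_A. Those of batch A rest on single oocytes, with means of 0.304% without GV_A1 and 0.00436% without MII_A1.

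The decay share of Srsf3 averaged 9.59% ± 4.20 in GV_A and 6.67% ± 5.88 in MII_A (log2 change in use −0.42, adjusted p 1). With single oocytes left out the change ran from −0.77 (without MII_A5) to −0.21 (without MII_A6). In batch B 7 of 10 GV and 10 of 15 MI oocytes had no count of its decay class, with a median of 187 and 159 counts of the gene per oocyte, so that share was not tested there. Srsf4 had a retained-intron share of 3.04% ± 6.28 in GV_B and 9.06% ± 14.8 in MI_B (log2 change in use 1.05, adjusted p 1, and 2.19 with the replicate number as a block). Its values were uneven, with 6 of 15 MI oocytes at 0, a GV_B mean of 1.20% without GV_B10, and MI_B6 at 50.6% (95% Wilson interval 46.7% to 54.4%). MI_B6 was also the oocyte with the lowest Srsf7 level.

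The remaining shares were small on average, and several means rest on single oocytes. The decay share averaged up to 8.15% in Srsf6 and 8.02% in Srsf7, both in MI_B, where these genes had medians of 38 and 76 counts per oocyte. Without its highest oocyte the mean was 4.84% for Srsf6 (without MI_B10) and 2.90% for Srsf7 (without MI_B7). It averaged up to 1.03% in Srsf4, 0.590% in Srsf9 (0% without GV_A1), 0.357% in Srsf5 and 0.0859% in Srsf11 (0% without GV_A2), and Srsf10 has no annotated decay transcript. The retained-intron share averaged up to 4.24% in Srsf7, 3.29% in Srsf11, 2.47% in Srsf6, 2.46% in Srsf3, 1.3% in Srsf5 and 0.378% in Srsf2. Without their highest oocyte, the mean was 2.62% for Srsf7 (MI_B15), 0.419% for Srsf6 (MI_B11) and 0.115% for Srsf2 (MII_A6). Srsf9 and Srsf10 have no such transcript. The coding share averaged at least 87.7% in Srsf3, Srsf4, Srsf5, Srsf6, Srsf7, Srsf9 and Srsf11. In Srsf10 the rest, from 8.39% in MII_A to 17.9% in MI_B, fell to other transcripts without a coding label.

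Summed over the 10 genes, the decay share averaged 7.05% ± 2.56 in GV_A, 4.63% ± 1.78 in MII_A, 7.75% ± 1.09 in GV_B and 8.71% ± 2.69 in MI_B. Over all protein-coding genes it was 2.81% ± 0.445, 3.32% ± 0.560, 3.59% ± 0.656 and 3.26% ± 0.274. The retained-intron share of the SR genes was 0.694% ± 0.613, 0.391% ± 0.364, 2.37% ± 1.41 and 2.89% ± 2.18 in the same order of groups, beside the 3.11%, 2.98%, 4.08% and 4.50% of all protein-coding genes. Without the highest oocyte of each group it was 0.448%, 0.244%, 2.13% and 2.44%. These sums are a description and were not tested.

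The decay transcripts that passed the filter differ in how they place their stop codon, which short sequences of the GENCODE transcripts on GRCm38 show. In Srsf2-204 (chromosome 11, minus strand) the stop codon at 116852028-116852030 is the one used by the coding transcript Srsf2-201. An intron of 502 bases, 116850354-116850855, is removed after it, so that 2 junctions follow the stop and the last is 113 bases away. Srsf2-201 keeps this intron within its last exon of 1061 bases. The removed intron is thus in the 3′ part of the gene, and its junction also occurs in 1 of the 2 coding transcripts, so it is not particular to the decay class. Capitals mark the bases after the junction, or the stop codon.
Srsf2-204 junction of exons 2 and 3: ctggctattaaaaagGCGCAGTTGTGTAGC
Srsf2-204 stop codon: agcagtttcttccTAAgaaaatgatgaatc

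**Figure D4:**
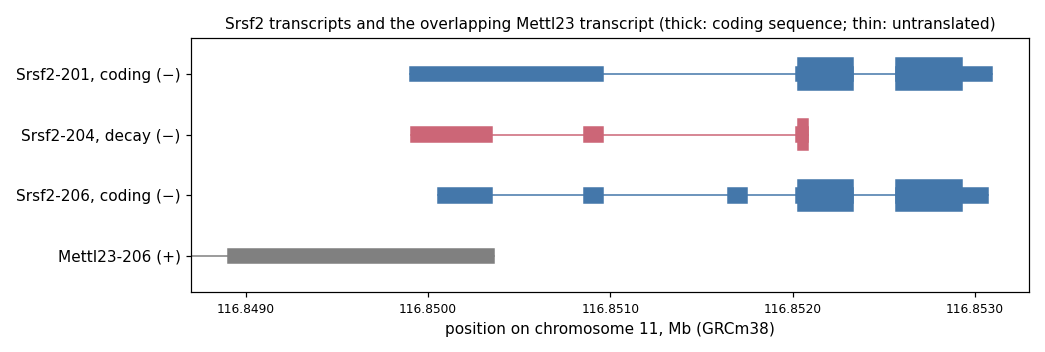
Exons of Srsf2-201, Srsf2-204, Srsf2-206 and Mettl23-206 along chromosome 11 (position in Mb, GRCm38), with the strand beside each name. The last exon of Srsf2-204, 448 bases, follows an intron of 502 bases that Srsf2-201 keeps, and lies within an exon of Mettl23-206 on the other strand.

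Srsf3-201 (chromosome 17, plus strand) instead includes an exon of 456 bases that the coding transcript Srsf3-202 lacks. The stop codon at 29039485-29039487 lies inside this exon, 548 bases before the last junction, and 3 junctions follow it. This is the poison exon by which Srsf3 is known to limit its own protein. The junction into the exon and its stop codon are shown, with the same use of capitals.
Srsf3-201 junction of exons 3 and 4: tccacctcggcgcagAGTCACCATCATGTC
Srsf3-201 stop codon: tctcaccaccctcTGAatctgcattagcca
Srsf1-204 (chromosome 11, plus strand) has a stop codon at 88050013-88050015, 80 bases before its last junction. That junction also occurs in Srsf1-203, which is annotated with a retained intron, and in the decay transcript Srsf1-207. The junction of exons 2 and 3, from 88049215 to 88049977, occurs in no other annotated transcript of Srsf1 and is shown for that reason, with capitals for the bases after it.
Srsf1-204 junction of exons 2 and 3: tttagatctcacgagACATATCTGAAGAGA

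Some SR genes share bases with other genes, and the tables do not state whether reads were counted by strand, so values there are uncertain. Srsf2 lies wholly, over 3194 bases, within Mettl23 on the other strand, and shares 655 bases with Mfsd11. Mettl23 averaged 10.9 ± 2.44 CPM in GV_A and 12.7 ± 4.25 in MII_A (0.21, adjusted p 0.574), and Mfsd11 averaged 2.87 ± 0.592 and 1.93 ± 0.790 CPM (−0.58, adjusted p 0.217). Srsf4 shares 2229 bases with Gm12992 on the other strand, which averaged 6.02 ± 0.852 and 9.97 ± 2.87 CPM (0.73, adjusted p 0.0303), and 4610 bases with A930004J17Rik on its own strand, at means of 0.0438 CPM or less. Srsf1 shares 634 bases with Gm11508 and Srsf11 shares 2470 bases with Gm43362, both at means of 0.0518 CPM or less. At MI, Mettl23 averaged 3.93 ± 2.62 CPM against 5.63 ± 3.53 in GV_B (−0.50, adjusted p 0.765), beside −0.46 for Srsf2. Mfsd11 averaged 1.31 ± 1.19 against 1.12 ± 0.606 CPM (0.25, adjusted p 0.918). Gm12992 averaged 4.88 ± 2.99 against 5.71 ± 3.57 CPM (−0.21, adjusted p 0.912), beside −0.32 for Srsf4. The part of these neighbours in the Srsf2 and Srsf4 values was not tested.

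HTSeq CPM ran above RSEM CPM for 8 of the genes, with a median ratio in GV_A from 1.32 in Srsf3 to 1.61 in Srsf7. For Srsf2 the median ratio was 0.757 in GV_A, 0.980 in MII_A, 1.04 in GV_B and 0.959 in MI_B. For Srsf4 it was 0.172 in GV_A, 0.174 in MII_A, 0.293 in GV_B and 0.311 in MI_B, so Srsf4 had 4.59 to 11.0 CPM by HTSeq in GV_A against 31.6 to 57.3 by RSEM. By HTSeq the log2 fold change of Srsf4 at MII was 0.47 (adjusted p 0.284).

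Genes that act with SR proteins were taken from lists. Of 14 kinases and phosphatases of SR proteins, 13 were tested, and at MII 3 were higher and 1 lower on the adjusted p, with a median log2 fold change of 0.14. For all genes tested the same threshold gave 9.06% higher and 11.5% lower, with a median of 0.01, which is the background for each list. The partner genes named here were picked after their values were seen. They were Ppp1cb (0.76, adjusted p 0.00470), Clk2 (0.56, adjusted p 0.0278), Srpk2 (0.37, adjusted p 0.0376) and Srpk1 (−0.59, adjusted p 0.0404). By spike-in scaling Ppp1cb, Clk2 and Srpk2 did not pass, at 0.0351, −0.20 and −0.34, and Srpk1 was at −1.39 (adjusted p 0.000496). Of 29 SR-related proteins 27 were tested, 6 were higher and 0 lower, with a median of 0.22. By spike-in scaling all 27 lay below 0, the highest being Rnps1 at −0.0534 (adjusted p 0.842), where the median of all genes was −0.72. Of 23 hnRNP proteins, which often oppose SR proteins, Hnrnpr and Hnrnph1 were higher and 0 lower, with a median of 0.27. By spike-in scaling neither passed, with Hnrnpr at 0.00508 (adjusted p 0.989) and Hnrnph1 at −0.28 (adjusted p 0.348). Of 15 decay and exon junction factors, Smg1 and Smg8 were higher and Rbm8a lower, with a median of 0.18. Spike-in scaling turned Smg1 to −0.0645 (adjusted p 0.852) and Smg8 to −0.33 (adjusted p 0.269), and Rbm8a was at −1.22 (adjusted p 0.000829). Of 10 import and export partners, Nxf1 (−0.83, adjusted p 0.000894) and Ddx39b (−0.51, adjusted p 0.0359) were lower and 0 higher, with a median of −0.13. Of the 88 partner genes tested at MII, edgeR and DESeq2 each called 0 with a fold over 2, against 8.47% and 8.52% of all genes, while 28 had an unadjusted p under 0.05, against 34.3% of all genes, and 12 were called by spike-in scaling, against 30.3%. On the adjusted p alone 13 of the 88 were higher, against 9.06% of all genes, and 4 were lower, against 11.5%. Whether any of these counts differs from the background was not tested. At MI 0 of 88 passed the adjusted p in edgeR, DESeq2 called 0, and 8 had an unadjusted p under 0.05, against 11.0% of all genes.

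The genes with the most similar pattern over the 37 oocytes, each value taken relative to GV oocytes of its batch, were Rpl34 for Srsf2 (Pearson r 0.748), Btbd10 for Srsf10 (0.811) and Wasl for Srsf1 (0.768), among 15073 genes. Oocytes of a batch share their processing, and r is given as a description without a p.

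Marker genes were read for the label of the cells. All 14 oocyte markers were counted in each group, led by Gdf9 at a mean of 2823 CPM in GV_A, and none was at 0. Their summed level had medians of 12691 CPM in GV_A, 8950 in MII_A, 4807 in GV_B and 4496 in MI_B. At MII 5 of 14 were called lower, Zp1, Zp2, Zp3, Figla and Npm2, against 6.32% of all genes, and 7 of 14 were lower on the adjusted p alone, against 11.5%. At MI 0 of 14 were called in edgeR, where 3 had an unadjusted p under 0.05. The 16 cumulus and granulosa markers summed to medians of 29.7, 21.4, 23.7 and 16.3 CPM in the same order of groups, mostly Cyp19a1 at means of 16.1, 17.5, 15.9 and 13.7 CPM. Amhr2 and Ptx3 were at 0 in GV_A, as in GV_B and MI_B, where Amh and Foxl2 were at 0 as well, and Inhbb in MI_B. Of these markers 1 was tested at MII, with 0 called by edgeR and 0 at an unadjusted p under 0.05, and 4 at MI, where Gja1 (−3.42) and Ccnd2 (−3.69) were called lower. Over all 12419 genes tested at MI, edgeR called 4 lower. With HTSeq counts, and with the replicate number as a block, 0 of all genes were called at MI. The 9 blood and immune markers had median sums of 0.118, 0.657, 4.56 and 2.48 CPM, with MII_A1 at 17.2 CPM. Their most abundant genes were Hbb-bt, Hba-a1, Hbb-bs and Hbb-bs, with Cd74 and Lyz2 at 0 in GV_A, GV_B and MI_B, C1qa at 0 in GV_B and MI_B, and Hba-a2 at 0 in MI_B. Of these 9 markers 0 could be tested at MII, and 2 were tested at MI, with 0 called by edgeR and 1 at an unadjusted p under 0.05. The part of these markers in the SR results was not tested.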

How the data were processed

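The authors counted reads of 37 single mouse oocytes and deposited counts per gene (HTSeq 0.12.4 after STAR 2.7.6a) and expected counts of genes and transcripts (RSEM 1.3.1), after trimming with Trim Galore 0.6.4, against mm10 with spike-in sequences. Here genes and transcripts were matched to GENCODE annotation by identifier, 54723 of 54752 and 138789 of 138835. Expected counts were scaled by TMM within batch and tested by edgeR 4.0.16 (quasi-likelihood, minimum count 10, total 15) in R 4.3.3, with Benjamini-Hochberg adjustment over all genes, transcripts or shares. DESeq2 1.42.0 and limma 3.58.1 were run beside it. Class shares used the annotated transcript types and edgeR's test of usage, or limma on log ratios with an offset of 0.5. The code was tested on simulated data. The members and lists were chosen with earlier results of these data known. Named by rule were the 10 genes, called transcripts, the most counted GV_A transcript of each gene, up to 2 called genes per direction of each partner list (none was called, so the partner genes named fall outside the rule), marker genes that were most abundant or at 0 (those named as called fall outside the rule and were picked after their values were seen), and the gene most like each of the 3 members highest per length in GV_A, on log2 CPM with a pseudocount of 1.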

Additional observations from a re-analysis of the deposited data

Results flagged for a closer look

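Values of single oocytes were compared with the others of their group by the gap to the nearest oocyte relative to the range. Sets of more than 10 values were not screened, so the 15 MI oocytes are not covered. Of 51 sets of values 6 had such an oocyte, and chance marks about 1 in 20 sets. The Srsf1 level in GV_B1, 137 CPM, lay above the other GV_B oocytes at 76.7 to 108. The retained-intron share of Srsf1 was 7.22% in GV_A1 (95% Wilson interval 5.29% to 9.58%) against 0% to 0.947% in the others, and 3.52% in MII_A1 (2.41% to 5.33%) against 0% to 0.0218%. That of Srsf4 was 1.83% in GV_A3 (1.04% to 3.14%) against 0% in the others, and 19.6% in GV_B10 (17.4% to 22.0%) against 0% to 6.82%. The number of genes with a count in MII_A1, 29816, lay above the 19574 to 22598 of the other MII oocytes. The change of Srsf7 at MII exceeded its change at MI by 1.50 on the log2 scale, a difference between the comparisons that passed its own test (adjusted p 0.0437). It passed in only 7 of 19 alternatives, and 5.46% of all genes passed the same test. What lies behind these values was not tested.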

How the results depend on the processing

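Processing alternatives were DESeq2, RLE factors, spike-in factors, no filter on low counts, HTSeq counts (also without MI oocytes 4, 8 and 9), a model of all 37 oocytes, the replicate number as a block, calls on the adjusted p alone, and omission of single batch A oocytes or of MI_B15. Of the test values, 679 kept direction and side of the threshold, 42 kept direction and lost the threshold, 10 gained it and 25 changed sign. Of the mean shares compared, 78 moved by less than the SD and 50 by more, all 50 when shares were taken per annotated length. The lower level of Srsf2 at MII passed in 18 of 19 alternatives, with log2 fold changes from −1.73 to −0.51. The value of −0.51 was by HTSeq counts, the alternative that missed the threshold (adjusted p 0.113). Srsf3 and Srsf10 passed in 17 of 19 each. In 12 of the 19 a single oocyte was left out, and the alternatives share libraries, so these tallies do not count independent tests. Srsf3 lost the threshold in the model of 37 oocytes (0.73, adjusted p 0.0773) and Srsf10 without the filter (0.50, adjusted p 0.0558), and both by spike-in factors.

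With calls on the adjusted p alone, 2 genes and 2 transcripts were higher, 1 gene and 2 transcripts lower, and 17 partner genes passed at MII. Spike-in factors gave 3 genes and 4 of 26 transcripts lower, beside 19.2% of all transcripts called, and 12 partner genes, and changed the sign at MII of Srsf1 (−0.54), Srsf3 (−0.0576), Srsf4 (−0.25), Srsf5 (−0.45), Srsf7 (−0.15), Srsf10 (−0.18), Srsf1-201 (−0.40), Srsf3-202 (−0.00128), Srsf4-202 (−0.25), Srsf5-201 (−0.39) and Srsf7-208 (−0.00610). The replicate block gave 0 transcripts lower at MII and 0 genes with a difference between the MII and MI changes, and changed the sign of Srsf11 at MII (0.0327) and of Srsf3 (−0.0510), Srsf2-204 (−0.11) and Srsf10-204 (−0.20) at MI; oocyte numbers do not pair stages, since profiles of equal number correlated best with each other in 1 of 6 cases in batch A and 0 of 10 in batch B. Without the filter, Srsf10-204 at MI was −0.0141. HTSeq counts gave 0 genes with a difference between MII and MI, against 2.06% of all genes, and a Srsf2 difference of 0.0598. HTSeq counts without MI oocytes 4, 8 and 9 again gave 0, a Srsf2 difference of 0.0161, and MI changes of 0.0524 for Srsf1 and 0.0543 for Srsf10. DESeq2 gave 2 genes with a difference, against 7.68% of all genes. Without MI_B15 it was 3 genes, and Srsf3 at MI was −0.12. The cause was not tested for any of these.

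Leaving out 1 oocyte of batch A gave 0 to 1 genes lower at MII, 0 to 1 transcripts lower and 0 to 2 genes with a difference between MII and MI, and leaving out MI_B15 gave 3 genes with a difference. Srsf2 passed a fold of 2 without GV_A2, MII_A3 or MII_A5 (−1.06, −1.05 and −1.05). The call of Srsf2-204 was lost without GV_A1 (adjusted p 0.0588), GV_A4 (0.0544), GV_A5 (0.0523), MII_A2 (0.0524), MII_A3 (0.0565) or MII_A6 (0.0625), within a range of 0.000434 to 0.103 over its alternatives. Srsf2-201 lost the threshold without GV_A1 (0.0776), GV_A3 (0.0906), GV_A4 (0.0695), GV_A5 (0.0769), GV_A6 (0.0878), MII_A1 (0.0957), MII_A2 (0.0738), MII_A4 (0.0974) or MII_A6 (0.0945), without the filter (0.123) and with the replicate block (0.0853). Srsf3-202 lost it without GV_A3 (0.0507), MII_A2 (0.0604) or MII_A6 (0.0524), without the filter (0.114), with the block (0.0964) and by spike-in factors (0.997). Srsf10-204 lost it without GV_A5 (0.0542) or MII_A2 (0.0537), without the filter (0.0706) and by spike-in factors (0.506). The Srsf7 difference lost the threshold without any of the 6 GV_A oocytes or MII_A2, MII_A3 or MII_A6, with adjusted p from 0.0169 to 0.190 over its alternatives. Without GV_A6, Srsf4 passed at MII (0.57, adjusted p 0.0463). Without GV_A2, Srsf11 at MII was 0.20 and Srsf11-202 was 0.0455, with ranges from −0.30 and −0.50. The log2 change in Srsf1 decay use ran from −0.14 to 0.0502, positive without GV_A1, and the Srsf5 difference from −0.0385, without GV_A5, to 0.18.

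Expected counts split reads between overlapping transcripts by a model, so shares of transcripts that share most bases, such as those of Srsf2, carry an error that the tables do not give. The median SE of the SR genes’ log2 fold changes was 0.197 at MII and 0.208 at MI. Class shares could not be tested for Srsf6, Srsf7, Srsf9 and Srsf11 in either comparison, for Srsf4 at MII or for Srsf3 at MI. The oocytes' females are unknown. GV against MII and GV against MI rest on different batches and different ways of maturing, spike-in scaling exists for batch A only, and no protein was measured.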
